A study of Homo sapiens with 16 samples.

Results

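Loss of G9a function was followed in HCT116, an epithelial line established from a human colon carcinoma, across both ways in which it was brought about. The 4 libraries of G9a-depleted or G9a-inhibited cells were pooled and set against the 4 libraries of their controls, with the experiment as a block, so that the average of the 2 effects was estimated. These 8 libraries are the whole series. Each was read from the sample titles as having 2 sequencing runs, a reading that rests on the titles' numbers and on a design text that speaks of biological and technical replicates. Cells had been given the G9a inhibitor BIX 01294 at 0.5 µM for 72 h (2 libraries) or a siRNA against G9a at 10 nM for 72 h, delivered by lipid transfection (2 libraries). Each treatment had its own controls, called here inhibitor controls (2 libraries) and siRNA controls (2 libraries), and no label states what was given to those cells. All groups are total RNA, made into libraries with a stranded kit. The protocol text that the samples share also names foreskin fibroblasts. No label says which replicates are biological or places the libraries of a group in separate cultures. The p-values therefore refer to the spread between libraries, and this may be technical. In the pooled fit that spread also holds the disagreement between the 2 experiments.

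G9a, encoded by EHMT2, is an enzyme that adds methyl groups to lysine 9 of histone H3 at genes and at the nuclear periphery, a mark bound by reader proteins such as HP1 and associated with silent chromatin. It works as a pair with the closely related enzyme GLP, encoded by EHMT1. BIX 01294 occupies the site where the histone tail binds and leaves the protein in place, whereas a siRNA lowers the messenger RNA itself. The average of both treatments is the mean of the effects of inhibition and of depletion. It is not limited to what they have in common, since a gene moved by only 1 of them still contributes to it.

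The inhibitor controls stood apart from the other libraries before any comparison was made. Their log-scale profiles correlated with each other at 0.993. With the remaining 6 libraries they correlated at 0.957 to 0.974, and those 6 among themselves at 0.985 to 0.995. On the first principal component, 62.3% of the variance, they lay at 35.5 and 34.4, and the other 6 libraries lay between -20.9 and -6.32. MALAT1, a nuclear noncoding RNA, had 59.7 and 55.5 FPKM with the inhibitor and 230 and 189 FPKM in its controls, and had 57.4 and 78.4 FPKM with the siRNA and 63.2 and 68.8 FPKM in its controls. RNA28S5, a ribosomal RNA entry, had 2365 and 1045 FPKM with the inhibitor and 210 and 40.8 FPKM in its controls, and had 5175 and 18930 FPKM with the siRNA and 7366 and 10800 FPKM in its controls. FPKM (fragments per kilobase of transcript, relative to the mapped fragments of a run) are given throughout after scaling by library. Implied depth was 2.02 to 6.94 per run in units of 1000000 fragments. Epithelial keratins were high, with 148.6 to 193.2 FPKM of KRT18 and 206 to 252 FPKM of KRT19, although CDH1 reached only 2.02 FPKM and CDH17 only 0.0215 FPKM. The 7 fibroblast markers summed to 1.75 to 2.81 FPKM in treated libraries and 2.01 to 3.76 FPKM in controls, and LUM was at 0 in all 8. A wider list of 13 fibroblast genes had 3 that passed the filter for testing, among them COL6A1. COL6A1 had 6.57 and 5.46 FPKM with the inhibitor and 9.13 and 8.14 FPKM in its controls. With the siRNA it had 4.32 and 4.78 FPKM, against 5.41 and 7.35 FPKM in its controls, and it was called lower (-0.43 ± 0.10, limma adjusted p = 0.0258). The 4 leukocyte markers summed to at most 0.725 FPKM in treated libraries and 0.728 FPKM in controls, and 1 of a wider 6 passed the filter. The part that these differences between libraries play in the results was not tested, and values without the inhibitor controls are given beside the results.

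The targeted gene itself was measured first. EHMT2 (ENSG00000204371, chr6:31847536-31865464 in hg19) had 19.7 and 18.9 FPKM with the inhibitor, against 24.7 and 21.0 FPKM in its controls. It had 4.68 and 4.54 FPKM with the siRNA, against 15.9 and 17.8 FPKM in its controls. Both siRNA libraries lay far below every other library, and the inhibitor libraries lay below their own controls but above both siRNA controls, so treated and control libraries overlapped. The average log2 difference of EHMT2 was -0.95 ± 0.25 (SE, limma adjusted p = 0.034), made up of -0.23 with the inhibitor and -1.67 with the siRNA, and these differed from each other (difference 1.44, adjusted p = 0.000776). Leaving out the inhibitor controls sets the 4 treated libraries against the 2 siRNA controls, and it also drops the experiment block, since the inhibitor libraries then have no control of their own. It gave EHMT2 an average of -0.74 with an adjusted p of 0.638. EHMT1 (ENSG00000181090, chr9:140513444-140764468) had 10.9 and 12.4 FPKM with the inhibitor and 25.5 and 24.0 FPKM in its controls. EHMT1 had 9.09 and 10.2 FPKM with the siRNA and 12.2 and 15.8 FPKM in its controls. Its average fell by 0.76 on the log2 scale (SE 0.12, adjusted p = 0.0113), and without the inhibitor controls EHMT1 stood at -0.37 with an adjusted p of 0.408. All log2 differences are on the log2(FPKM + 1) scale, which understates the change of low genes.

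Among 12840 genes tested, 2242 (17.5%) were called for pooled G9a loss at a limma adjusted p under 0.05. Of these, 983 (7.66% of genes tested) were higher and 1259 (9.81%) were lower after G9a loss. Called genes that were higher made up 43.8% with scaled values, against 14.2% with the FPKM as deposited, so the balance between higher and lower genes rests on the scaling. The changes were small. Their median size was 0.346 on the log2 scale, and 43 called genes changed by at least 1, of which 4 were higher and 39 lower. In 2107 of the called genes (94%, or 16.4% of genes tested), both treated libraries lay on the same side of both of their own controls in each experiment, a pattern seen in 28.6% of all genes. Of these 2107, 939 were higher (7.31% of genes tested) and 1168 were lower (9.1%). Of the called genes, 963 (43%) had all 4 treated libraries on one side of all 4 controls, against 11.4% of all genes. Calling requires such separation in part, so these shares describe the called genes and are no further support for them.

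Each against its own controls, the inhibitor's effects were the larger of the pair. The inhibitor libraries correlated with their own controls at 0.9714 to 0.9735 and with the siRNA controls at 0.9877 to 0.9942. The part of the inhibitor controls in the larger effects was not tested. The median size of the called changes was 0.432 with the inhibitor and 0.24 with the siRNA. Tested alone against its own controls, the inhibitor had 4682 genes called (36.5%) and the siRNA 273 (2.13%). Of the pooled calls, 2019 were also called with the inhibitor alone, 213 with the siRNA alone and 198 in neither. The experiments share no library. Across genes their effects correlated at r = 0.302 and rho = 0.357, which are descriptions over genes that are not independent replicates, and 64% of genes had the same sign in both. Genes called in each experiment separately and in the same direction numbered 188, which is 4.02% of the inhibitor's calls and 68.9% of those of the siRNA. Of these, 72 were higher and 116 lower, and another 16 genes were called in opposite directions. The effects themselves differed for 1517 genes (11.8%). Among the pooled calls 451 differed in this way, 444 of them with the larger effect under the inhibitor.

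**Figure D1:**
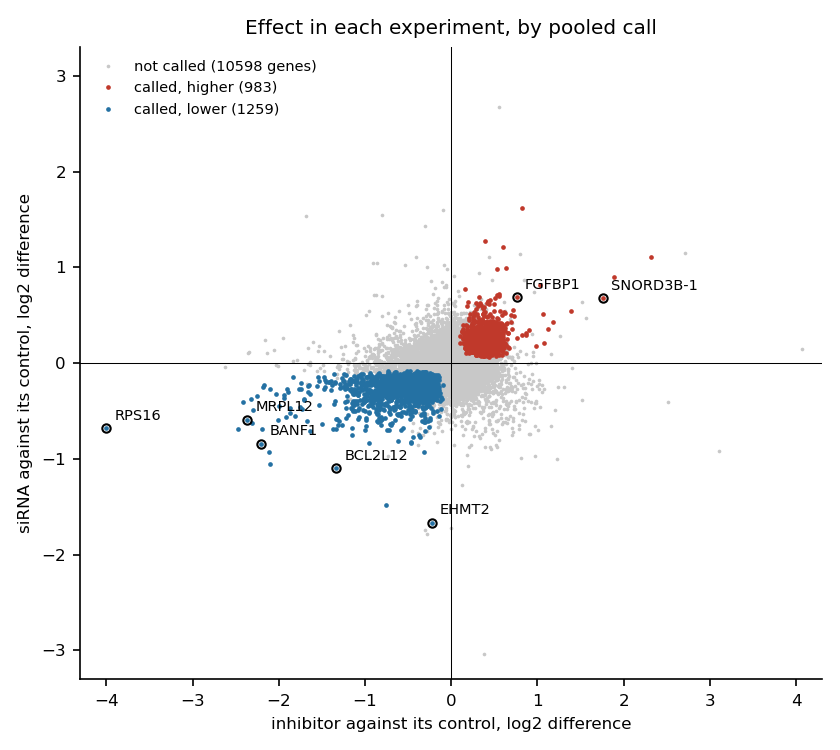
Log2 difference with the siRNA (vertical axis) against that with the inhibitor (horizontal axis), each treated group minus its own control, 1 point a gene, coloured by the call for pooled G9a loss. The 983 higher and 1259 lower calls fill the quadrants where both effects have the same sign, EHMT2 lies low on the vertical axis, and RPS16, BANF1 and MRPL12 lie far to the left.

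The number of calls changed with the control libraries used and with the block. With the inhibitor controls left out, and with them the block, 5 genes (0.0389%) were called by limma and 1402 had an unadjusted p under 0.05. With the siRNA controls left out instead, likewise without the block, 5497 were called. With all 8 libraries and no block 1 gene was called and 2741 had an unadjusted p under 0.05. Leaving out the inhibitor controls also removed the block, and the part of each in the lost calls was not tested. The same holds for each value below that is given without the inhibitor controls. Of the 2242 pooled calls, 2202 kept their sign in that comparison, at a median of 0.456 of their size, and 40 changed sign. The 4 treated and 2 control libraries there overlap in part with those of the pooled fit, so the sign is not independent of it. The inhibitor libraries by themselves, set against the siRNA controls across the experiments, had the opposite sign for 564 of the 2242. Calls that held without the inhibitor controls were FGFBP1, KIAA0101, ANKRD10-IT1 and RP11-386G11.10, named because they held. KIAA0101 encodes a PCNA-binding protein of replicating cells, and had 70.8 and 73.9 FPKM with the inhibitor and 59.3 and 59.3 FPKM in its controls. KIAA0101 had 69.1 and 61.4 FPKM with the siRNA and 44.0 and 39.6 FPKM in its controls, and its average rise of 0.46 ± 0.08 (adjusted p = 0.0132) became 0.70 without the inhibitor controls (adjusted p = 0.0376). All 4 treated libraries exceeded all 4 controls for KIAA0101. ANKRD10-IT1, an intronic transcript of ANKRD10, had 10.6 and 9.15 FPKM with the inhibitor and 7.39 and 7.10 FPKM in its controls, and had 9.66 and 11.4 FPKM with the siRNA and 4.22 and 3.33 FPKM in its controls. Its average rise was 0.83 ± 0.17 (adjusted p = 0.0179), and 1.23 without the inhibitor controls (adjusted p = 0.0101). That average combined 0.40 with the inhibitor and 1.27 with the siRNA, which differed by the limma test (adjusted p = 0.0155). Both experiments again placed every treated library of ANKRD10-IT1 above every control. ANKRD10-IT1 is annotated as sense intronic, so reads of ANKRD10 itself cannot be told apart from it.

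FGFBP1 had the smallest p-value of all genes. It encodes a secreted carrier that binds fibroblast growth factors and releases them from the matrix. The gene (ENSG00000137440, chr4:15937192-15940363 in hg19) had 24.4 and 25.7 FPKM with the inhibitor, against 14.2 and 14.6 FPKM in its controls. With the siRNA FGFBP1 had 26.9 and 24.8 FPKM, against 15.0 and 16.4 FPKM in its controls. The 4 treated libraries averaged 25.4 ± 1.13 FPKM and the 4 controls 15.0 ± 0.968 FPKM (SD, n = 4 each), with no overlap. The average rise of FGFBP1 was 0.72 ± 0.06 (adjusted p = 0.0066), near-equal with the inhibitor (0.76) and the siRNA (0.69), and it was 0.66 without the inhibitor controls (adjusted p = 0.0293). FGFBP1 was also the single gene called when all 8 libraries were fitted without the block.

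The other called genes that were higher than their own controls in both experiments, ranked by the smaller of their 2 effects, held membrane, signalling and noncoding RNA genes. ANXA1, encoding the calcium-dependent phospholipid-binding protein annexin A1 (ENSG00000135046, chr9:75766673-75785309), had 273.8 and 284 FPKM with the inhibitor and 176 and 194 FPKM in its controls. ANXA1 had 339 and 309 FPKM with the siRNA and 240.5 and 217 FPKM in its controls. All treated libraries lay above all controls, the average rise of ANXA1 was 0.55 ± 0.06 (adjusted p = 0.00995), and it was 0.40 without the inhibitor controls (adjusted p = 0.28). TMEM14A, a mitochondrial membrane protein gene, had 40.8 and 46.6 FPKM with the inhibitor and 28.8 and 30.8 FPKM in its controls. TMEM14A had 55.6 and 53.7 FPKM with the siRNA and 35.9 and 30.2 FPKM in its controls, an average rise of 0.62 ± 0.07 (adjusted p = 0.00995) with no overlap between groups, and 0.55 without the inhibitor controls. COMMD8, a partner in endosomal sorting complexes, rose by 0.57 ± 0.07 (21.2 and 22.7 FPKM with the inhibitor, 13.4 and 14.5 in its controls, 24.9 and 23.7 with the siRNA, 18.3 and 14.9 in its controls). TMSB15A, a thymosin that binds actin monomers, rose by 0.60 ± 0.07, and CHAC2, which breaks down glutathione, rose by 0.52 ± 0.06. CRNDE, a long noncoding RNA known from colorectal tumours, rose by 0.59 ± 0.11 and had 9.64 and 9.51 FPKM with the inhibitor, 5.74 and 7.26 in its controls, 12.8 and 10.5 with the siRNA and 7.91 and 5.87 in its controls. None of ANXA1, TMEM14A, COMMD8, TMSB15A, CHAC2 and CRNDE was called without the inhibitor controls, where their averages were 0.40 to 0.56.

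Noncoding RNAs with uncertain values made up the rest of the 12 rising genes. SNHG3, which hosts small nucleolar RNAs in its introns, rose by 0.57 ± 0.08 (adjusted p = 0.00995) and had 4454 and 5523 FPKM with the inhibitor and 3510 and 3011 FPKM in its controls. SNHG3 had 5071 and 4791 FPKM with the siRNA and 3346 and 3445 FPKM in its controls. Its locus overlaps RCC1 and SNORA73B, so reads cannot be assigned to SNHG3 alone. The U3 small nucleolar RNA copies SNORD3C (0.92 ± 0.21) and SNORD3B-1 (1.22 ± 0.29) are near-identical and share reads. RP11-386G11.10 (1.22 ± 0.20) is annotated antisense over TUBA1B, and RPL32P29 (0.64 ± 0.09) is a pseudogene over RPS29. No source used here says whether counting used the strand.

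**Figure D2:**
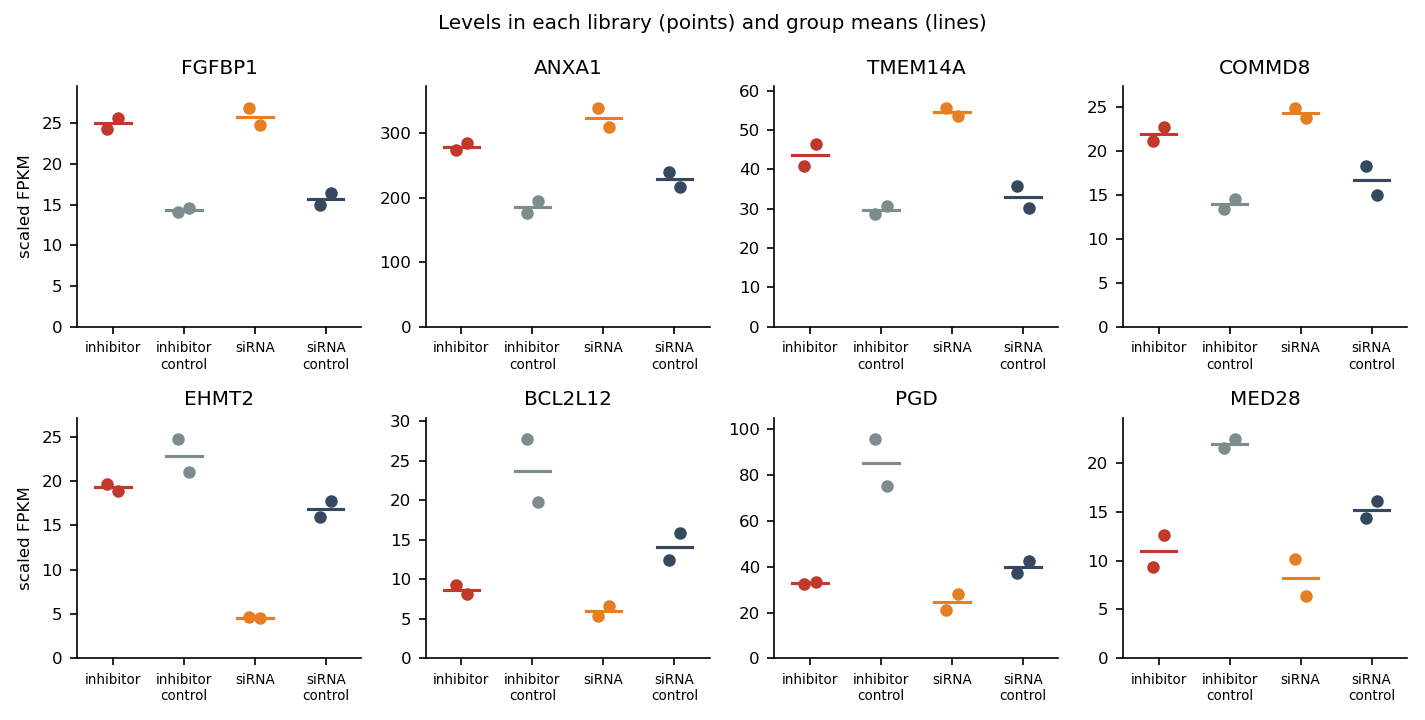
Scaled FPKM of 8 genes in each of the 8 libraries, with a line at each group mean (n = 2). FGFBP1, ANXA1, TMEM14A and COMMD8 are higher in each treated pair than in its own control pair, BCL2L12, PGD and MED28 are lower, and EHMT2 is far lower only with the siRNA.

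The called genes that were lower than their own controls in both experiments reached larger changes, and in most of them the inhibitor controls were the highest libraries. BCL2L12, a member of the BCL2 family of cell death regulators (ENSG00000126453, chr19:50168823-50177173), had 9.34 and 8.09 FPKM with the inhibitor and 27.7 and 19.7 FPKM in its controls. BCL2L12 had 5.40 and 6.66 FPKM with the siRNA and 12.4 and 15.8 FPKM in its controls. All treated libraries lay below all controls. The average of BCL2L12 fell by 1.22 on the log2 scale (SE 0.13, adjusted p = 0.00995), similar with the inhibitor (-1.33) and the siRNA (-1.10), and it was -0.87 without the inhibitor controls (adjusted p = 0.261). The locus overlaps IRF3. MED28, a subunit of the Mediator complex of transcription, had 9.35 and 12.6 FPKM with the inhibitor and 21.5 and 22.4 FPKM in its controls. MED28 had 10.1 and 6.39 FPKM with the siRNA and 14.4 and 16.1 FPKM in its controls, an average of -0.89 ± 0.13 (adjusted p = 0.0105) without overlap, and -0.64 without the inhibitor controls.

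PGD encodes 6-phosphogluconate dehydrogenase of the pentose phosphate pathway (ENSG00000142657, chr1:10458649-10480201). It had 32.6 and 33.1 FPKM with the inhibitor and 95.6 and 75.3 FPKM in its controls. PGD had 21.0 and 28.0 FPKM with the siRNA and 37.4 and 42.4 FPKM in its controls, and its average fell by 1.02 (SE 0.15, adjusted p = 0.0102), against -0.48 without the inhibitor controls (adjusted p = 0.375). SF3A1, a splicing factor of the U2 particle, fell by 1.03 (SE 0.14, adjusted p = 0.00995), and MLST8, a subunit of the mTOR complexes, fell by 0.85 (SE 0.12, adjusted p = 0.0103). CISD3, a mitochondrial iron-sulfur protein gene, averaged -0.95 ± 0.15, and MRFAP1, whose product binds the chromatin protein MRG15, averaged -1.18 ± 0.17. BANF1, which tethers DNA to the nuclear envelope, had 12.8 and 12.02 FPKM with the inhibitor and 62.7 and 58.6 FPKM in its controls. BANF1 had 6.51 and 7.95 FPKM with the siRNA and 12.5 and 14.9 FPKM in its controls. The inhibitor libraries of BANF1 thus overlapped the siRNA controls, and its average of -1.52 ± 0.24 (adjusted p = 0.0112) was -0.49 without the inhibitor controls. RPLP1 (-1.52 ± 0.26), a protein of the ribosomal stalk, and the entries AC016739.2, CTD-2651B20.6 and hsa-mir-6723 complete the 12. AC016739.2 is annotated as a pseudogene, and hsa-mir-6723 is the file's name for a pseudogene entry. BANF1 overlaps EIF1AD, SF3A1 overlaps CCDC157, MLST8 overlaps BRICD5 and CISD3 overlaps PCGF2, and none of the 12 genes that fell was called without the inhibitor controls. Among the 27 genes ranked here or below, dropping the block alone, with all libraries kept, lost the call of 26.

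**Figure D3:**
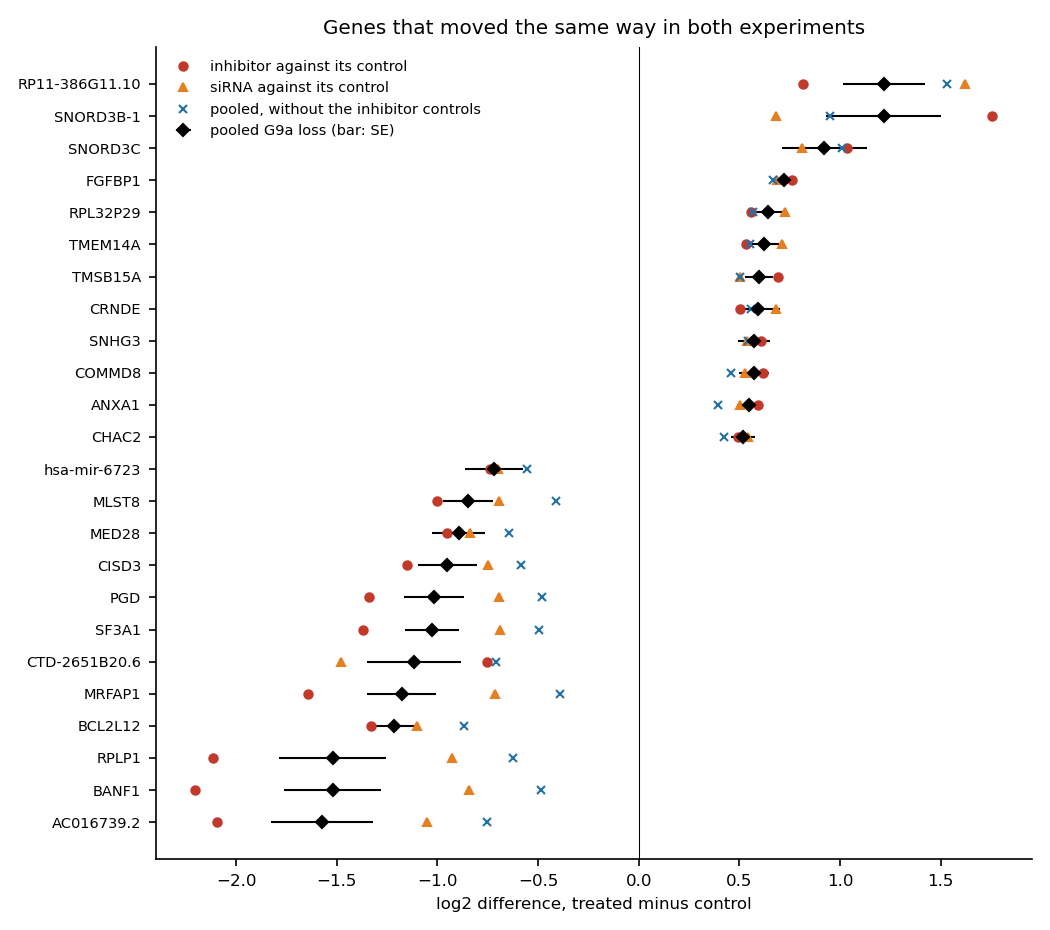
Log2 difference of the 12 called genes that were higher and the 12 that were lower than their own controls in both experiments. The genes were chosen by the smaller of their 2 effects and are shown in order of the pooled average. Diamonds give the pooled average with its SE, circles the inhibitor and triangles the siRNA against their own controls, and crosses the pooled difference without the inhibitor controls. For FGFBP1 the 4 marks nearly coincide, whereas for RPLP1, BANF1 and AC016739.2 the inhibitor lies far to the left of the siRNA and of the crosses.

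The upstream sequence of a rising and a falling pair of these genes is shown because G9a acts on chromatin. FGFBP1 and ANXA1 were taken from the genes that rose and BCL2L12 and PGD from those that fell, after their values were seen. Each run is the 250 bases before the gene's start from RefSeq (GRCh38.p14), 5′ to 3′ on the gene's strand, with CG dinucleotides, the sites of DNA methylation, in capitals. They lie at chr4:15938741-15938990 (minus strand) for FGFBP1, chr9:73151615-73151864 (plus) for ANXA1, chr19:49664892-49665141 (plus) for BCL2L12 and chr1:10398814-10399063 (plus) for PGD.
FGFBP1: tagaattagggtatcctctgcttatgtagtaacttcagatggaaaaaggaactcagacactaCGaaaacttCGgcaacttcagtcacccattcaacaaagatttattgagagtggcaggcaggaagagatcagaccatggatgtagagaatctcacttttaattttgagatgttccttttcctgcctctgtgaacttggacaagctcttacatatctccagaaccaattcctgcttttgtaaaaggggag
ANXA1: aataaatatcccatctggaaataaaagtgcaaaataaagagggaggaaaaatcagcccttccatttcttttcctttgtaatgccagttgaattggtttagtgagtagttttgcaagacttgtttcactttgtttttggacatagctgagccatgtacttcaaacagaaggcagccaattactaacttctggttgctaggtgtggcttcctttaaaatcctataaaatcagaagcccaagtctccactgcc
BCL2L12: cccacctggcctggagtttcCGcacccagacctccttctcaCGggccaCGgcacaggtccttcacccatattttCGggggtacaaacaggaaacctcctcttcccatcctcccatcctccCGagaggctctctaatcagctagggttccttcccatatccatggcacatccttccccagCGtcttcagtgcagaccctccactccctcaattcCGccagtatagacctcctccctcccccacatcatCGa
PGD: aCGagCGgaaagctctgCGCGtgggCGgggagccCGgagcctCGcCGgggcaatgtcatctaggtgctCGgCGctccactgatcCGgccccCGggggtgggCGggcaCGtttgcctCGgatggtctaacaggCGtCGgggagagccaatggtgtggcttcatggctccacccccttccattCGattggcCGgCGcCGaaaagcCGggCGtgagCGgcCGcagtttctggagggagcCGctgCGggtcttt
CG was searched on 1 strand, since it reads the same on both. FGFBP1 has 2 CG and ANXA1 has 0, while BCL2L12 has 8 and PGD has 27, against a median of 11 over the 35116 promoters in the table. As few or fewer are found in 22.9% of promoters for FGFBP1, 6.06% for ANXA1, 45.9% for BCL2L12 and 84.1% for PGD. These 4 were picked and show nothing about the called genes at large.

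Among called genes, several of the largest pooled averages combined unequal effects. RPS16, whose product is part of the small ribosomal subunit, had 14.3 and 15.1 FPKM with the inhibitor and 462.6 and 135 FPKM in its controls. RPS16 had 8.42 and 15.5 FPKM with the siRNA and 17.7 and 20.3 FPKM in its controls, so its average of -2.34 ± 0.64 (adjusted p = 0.0384) combined -4.00 and -0.68, which differed (adjusted p = 0.0151). Without the inhibitor controls RPS16 stood at -0.51 (adjusted p = 0.426). MRPL12, of the mitochondrial ribosome, combined -2.37 and -0.59 into an average of -1.48 ± 0.32 (adjusted p = 0.0206), or -0.48 without the inhibitor controls, and its locus overlaps SLC25A10. The largest increase among called genes, RP11-112J1.1 (1.71 ± 0.40, adjusted p = 0.0247), is a pseudogene with 21.2 and 12.7 FPKM with the inhibitor and 2.16 and 2.90 in its controls, and 33.8 and 9.18 with the siRNA and 9.87 and 6.00 in its controls. Its 2 effects, 2.31 and 1.11, were not called different (adjusted p = 0.29).

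An average can also hide opposite movement. Among 8305 genes with a mean of at least 5 FPKM, 600 (7.22%) had effects of opposite sign that differed by the limma test. MT-ND6, the mitochondrial gene for a complex I subunit encoded on the light strand, had 74.6 and 58.9 FPKM with the inhibitor and 100.6 and 135 FPKM in its controls. MT-ND6 had 52.6 and 84.7 FPKM with the siRNA and 44.6 and 37.4 FPKM in its controls. Effects of -0.81 and 0.70 gave MT-ND6 an average of -0.054, and the difference of -1.50 passed the test (adjusted p = 0.0171). MTRNR2L10 (0.90 and -0.74, average 0.078), RN7SKP203 (0.72 and -0.72), RPL41P1 (-0.86 and 1.05), RP11-587D21.1 (1.01 and -0.70) and RP11-603J24.9 (3.11 and -0.92) were the others ranked by the smaller effect. RP11-603J24.9 was listed at nearly 0 in both inhibitor controls and overlaps ERBB3 and PA2G4, so its size cannot be read. None of these was called for pooled G9a loss.

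Gene groups were read through lists chosen with earlier results of these data known, so the counts in this and the following paragraphs are descriptions. They are to be set against 7.66% higher and 9.81% lower among all genes and an overall median of -0.002. The share called rose with level, from 6.7% of genes at 1 to under 5 FPKM to 40.6% at 100 FPKM or more. Lists were not matched to all genes for level. Of 12 writers and partners of G9a, 2 fell (EHMT2 and EHMT1), 1 rose (ZNF644, a zinc finger protein of the G9a complex, 0.27 ± 0.06, adjusted p = 0.0215) and 9 were not called. Of 9 HP1 proteins and other readers of the mark, 4 fell and 0 rose, with a list median of -0.14, and of -0.0082 without the inhibitor controls. UHRF1, which binds methylated histone H3 and brings DNMT1 to replicated DNA, had 20.8 and 20.01 FPKM with the inhibitor and 41.0 and 35.6 FPKM in its controls. UHRF1 had 14.0 and 16.3 FPKM with the siRNA and 20.8 and 22.2 FPKM in its controls, and its average fell by 0.68 (SE 0.09, adjusted p = 0.00995). Values of UHRF1 with the inhibitor overlapped those of the siRNA controls, and it was at -0.28 without the inhibitor controls. CBX5 (-0.59 ± 0.15) and CBX1 (-0.27 ± 0.07), which encode HP1 proteins, and MPHOSPH8 (-0.65 ± 0.18), of the HUSH silencing complex, were the other falling readers, and CBX1 changed sign to 0.072 without the inhibitor controls. Of 9 demethylases of lysine 9, 0 were called, and KDM4B came nearest (-0.41 ± 0.13, adjusted p = 0.0599).

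Further chromatin lists were read in the same way. Of 11 members and partners of Polycomb repressive complex 2, 2 fell: the methyltransferase EZH2 (-0.43 ± 0.07, adjusted p = 0.0126) and its recruiter JARID2 (-0.32 ± 0.08, adjusted p = 0.0338). Of 11 DNA methylation enzymes and readers, 1 fell, the de novo enzyme DNMT3A (-0.52 ± 0.15, adjusted p = 0.043), and DNMT1 stood at -0.24 (adjusted p = 0.132). Of 11 cohesin genes and CTCF, which shape chromosome loops, 3 fell, namely SMC1A (-0.78 ± 0.13), SMC3 (-0.53 ± 0.10) and CTCF (-0.45 ± 0.11). Of 13 genes of the nuclear lamina and envelope, where much of the G9a mark lies, 6 fell and 1 rose. Beside BANF1 these included EMD (-0.47 ± 0.09), LMNB2 (-0.30 ± 0.06) and, rising, TMPO (0.30 ± 0.09). Their list median was -0.22, against 0.058 without the inhibitor controls, and none of the genes in these 4 lists was called without them. Average differences without the inhibitor controls were -0.15 for EZH2, -0.18 for JARID2, -0.092 for DNMT3A, -0.22 for SMC1A, -0.090 for SMC3 and -0.087 for CTCF. Set against the siRNA controls alone, the averages were -0.18 for EMD, -0.10 for LMNB2 and 0.058 for TMPO.

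Lists of germline, imprinted, zinc finger and interferon-stimulated genes had many members that did not pass the expression filter. Of 28 germline and cancer-testis genes in the files, 2 were tested and 1 rose, MAGEA12 (0.25 ± 0.06, adjusted p = 0.0282), which was already at 47.3 FPKM in inhibitor controls and 57.1 FPKM in siRNA controls. Of 28 imprinted genes, 15 were tested, 2 rose and 4 fell, with MEST at 0.28 ± 0.04 and PHLDA2 at -1.13 ± 0.24. Of 261 zinc finger genes on chromosome 19, 110 were tested, 1 rose and 5 fell, with a median of -0.012. Of 19 interferon-stimulated genes tested out of 34, 4 rose and 0 fell. IRF7, a transcription factor of the interferon response, rose by 0.64 ± 0.11 (adjusted p = 0.0117), and the signal transducer STAT2 rose by 0.30 ± 0.06 and the RNA-binding IFIT5 by 0.32 ± 0.07. IRF7 averaged 4.66 FPKM with the inhibitor, 2.48 in its controls, 4.91 with the siRNA and 3.02 in its controls. Without the inhibitor controls the list median was 0.11 and IRF7 stood at 0.52 (adjusted p = 0.192). With the inhibitor controls left out the averages were 0.11 for MAGEA12, 0.062 for MEST, -0.45 for PHLDA2, 0.31 for STAT2 and 0.12 for IFIT5.

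Lists of ribosomal and respiratory genes held calls in both directions. Of 80 cytosolic ribosomal protein genes, 39 rose and 10 fell, with a median of 0.17, which was 0.056 without the inhibitor controls. Examples were RPL10 (0.29 ± 0.04, adjusted p = 0.0106), RPL39 (0.41 ± 0.07) and the p53-regulated paralog RPS27L (0.44 ± 0.07), whereas RPS16 and RPLP1 above fell steeply. Ribosomal protein genes have many processed pseudogenes that can share reads. Of 76 genes of the mitochondrial ribosome, 19 rose and 8 fell (median 0.13), with MRPL1 at 0.40 ± 0.06 and MRPL15 at -0.50 ± 0.05. Of 77 nuclear genes of the respiratory chain, 20 rose and 8 fell (median 0.13), with COX6C at 0.40 ± 0.07, SDHD at 0.43 ± 0.07 and NDUFS6 at -0.51 ± 0.08. Without the inhibitor controls both of these medians were close to 0, at -0.022 and 0.0041. Of 11 genes encoded in mitochondrial DNA, 4 fell, and the median was -0.75, made up of -1.48 with the inhibitor and -0.019 with the siRNA. MT-CO1 averaged 840 FPKM with the inhibitor and 1843 in its controls, and 710 with the siRNA and 874 in its controls, an average of -0.72 ± 0.16 (adjusted p = 0.0218). Without the inhibitor controls the median of these 11 was 0.13. The corresponding averages without the inhibitor controls were 0.23 for RPL10, 0.34 for RPL39, 0.40 for RPS27L, 0.27 for MRPL1, -0.29 for MRPL15 and 0.19 for COX6C. Leaving out the inhibitor controls gave averages of 0.20 for SDHD, -0.17 for NDUFS6 and -0.18 for MT-CO1.

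Lists of RNA-binding, ribosome biogenesis and tRNA synthetase genes came next. Of 21 hnRNP genes, whose products coat nascent RNA, 9 fell and 0 rose, with a median of -0.35 that was -0.034 without the inhibitor controls. HNRNPAB (-0.55 ± 0.09), the splicing repressor PTBP1 (-0.50 ± 0.10) and HNRNPL (-0.30 ± 0.06) had the smallest p-values. The effects of 13 of these 21 differed between the experiments. Of 23 SR proteins and core splicing factors, 11 fell and 1 rose (median -0.28, against -0.079 without the inhibitor controls), including SRSF5 (-0.34 ± 0.05) and SF3B2 (-0.45 ± 0.06) beside SF3A1. Of 26 genes of MYC and ribosome biogenesis, 10 fell and 0 rose, led by NOLC1 (-0.69 ± 0.12), RRS1 (-0.66 ± 0.12) and NOP16 (-0.41 ± 0.08). Of 14 host genes of small nucleolar RNAs, 4 rose and 2 fell, with GAS5 at 0.34 ± 0.07 and SNHG17 at -0.62 ± 0.15. Of 20 aminoacyl-tRNA synthetases, 1 rose and 5 fell, including AARS (-0.79 ± 0.14) and YARS (-0.42 ± 0.08). Against the siRNA controls alone these averages were -0.19 for HNRNPAB, -0.36 for PTBP1, -0.14 for HNRNPL, -0.10 for SRSF5, -0.13 for SF3B2 and -0.17 for NOLC1. Average differences without the inhibitor controls were -0.19 for RRS1, -0.14 for NOP16, 0.083 for GAS5, -0.71 for SNHG17, -0.37 for AARS and -0.34 for YARS.

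Several genes of the actin cytoskeleton fell. Of 17 tropomyosin, actin and actinin genes, 8 fell and 2 rose, with a median of -0.35 that was -0.13 both with the siRNA and without the inhibitor controls. TPM2, a tropomyosin that stabilises actin filaments, had 120.5 and 127 FPKM with the inhibitor and 169.7 and 174 FPKM in its controls. TPM2 had 65.5 and 70.0 FPKM with the siRNA and 119 and 122 FPKM in its controls. Its average fell by 0.65 (SE 0.07, adjusted p = 0.00995), with a larger effect of the siRNA (-0.83) than of the inhibitor (-0.47, adjusted p of the difference 0.0191), and it was -0.40 without the inhibitor controls (adjusted p = 0.6). MYL9, a myosin light chain, fell by 0.69 (SE 0.08), and FLNA, which crosslinks actin, fell by 0.43 (SE 0.06), both at an adjusted p of 0.00995. MYL9 had 10.6 and 10.6 FPKM with the inhibitor, 18.98 and 20.6 in its controls, 8.35 and 8.80 with the siRNA and 12.4 and 13.2 in its controls, so every treated library lay below every control. Set against the siRNA controls alone, the averages were -0.39 for MYL9 and -0.28 for FLNA.

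Stress, growth and metabolic lists held calls in both directions, some at shares near the 17.5% of all genes called. The share called was 21.2% of the mitosis list, 22.9% of the G1/S list and 27.3% of the endoplasmic reticulum list, against 52.4% of the chaperones and 51.6% of the proteasome. These shares are not matched for level, with which the share called rose. Of 21 cytosolic and mitochondrial chaperones, 10 fell and 1 rose, with HSPE1 at -0.21 ± 0.04, TRAP1 at -0.36 ± 0.07 and HSPA8 rising by 0.29 ± 0.06. Of 22 endoplasmic reticulum chaperone and unfolded protein genes, 4 fell and 2 rose, with HSP90B1 at -0.33 ± 0.05, PDIA3 at -0.28 ± 0.05 and SEC61G at 0.51 ± 0.10. Of 24 cholesterol synthesis genes, 7 rose and 4 fell. STARD4, a sterol carrier, rose by 0.46 ± 0.06 and IDI1 by 0.40 ± 0.07, while LSS fell by 0.38 (SE 0.07). Of 25 glycolysis and pentose phosphate genes, 8 fell and 4 rose, with the glucose transporter SLC2A1 at -0.58 ± 0.06 beside PGD. Of 31 proteasome subunit genes, 9 rose and 7 fell, such as PSMB1 (0.31 ± 0.05) and PSMB6 (-0.36 ± 0.06). Of 25 NRF2 target and antioxidant genes, 6 rose and 2 fell, with TXN at 0.28 ± 0.05 and SOD1 at 0.21 ± 0.05. Of 35 genes of G1/S and DNA replication, 6 fell and 2 rose, with the transcription factor MYBL2 at -0.91 ± 0.12, CCND1 at -0.43 ± 0.06 and TK1 at -0.53 ± 0.08. Of 33 mitosis genes, 4 rose and 3 fell, with MAD2L1 at 0.43 ± 0.07, CCNA2 at 0.39 ± 0.06 and PLK1 at -0.67 ± 0.11. CCND1 had almost the same effect with the inhibitor (-0.43) and the siRNA (-0.44). With the inhibitor controls left out the averages were -0.087 for HSPE1, -0.17 for TRAP1, 0.13 for HSPA8, -0.067 for HSP90B1, -0.17 for PDIA3 and 0.53 for SEC61G. The corresponding averages without the inhibitor controls were 0.31 for STARD4, 0.26 for IDI1, -0.15 for LSS, -0.27 for SLC2A1, 0.088 for PSMB1 and -0.20 for PSMB6. Leaving out the inhibitor controls gave averages of 0.21 for TXN, 0.078 for SOD1, -0.50 for MYBL2, -0.26 for CCND1, -0.19 for TK1 and 0.31 for MAD2L1. Against the siRNA controls alone these averages were 0.26 for CCNA2 and -0.23 for PLK1.

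The remaining lists were read in the same way. Of 29 autophagy and lysosome genes, 3 rose and 4 fell, with the mitophagy receptor BNIP3 at 0.37 ± 0.06 and BECN1 at -0.49 ± 0.08. Of 22 genes of ATF4 and the amino acid response, 2 rose and 4 fell, with DDIT3 at 0.38 ± 0.07 and SHMT2 at -0.22 ± 0.05. Of 21 p53 target genes, 4 rose and 2 fell, with RRM2B at 0.36 ± 0.07 and GADD45A at -0.42 ± 0.09. Of 20 immediate early and MAPK feedback genes, 5 fell and 1 rose, with IER2 at -0.96 ± 0.16. Of 6 metallothionein and zinc genes, 1 fell, MT2A (-0.57 ± 0.09, adjusted p = 0.0106), and the effects of 3 differed between the experiments. MT2A had -0.36 with the inhibitor and -0.77 with the siRNA (limma adjusted p of the difference 0.0278). MT1E, not called, moved in opposite directions (0.39 and -0.68, adjusted p of the difference 0.000878). Of 17 epithelial genes, 3 fell and 1 rose, with TJP1 at -0.60 ± 0.10 and KRT8 at -0.27 ± 0.06, and KRT8 stood at 0.032 without the inhibitor controls. Of 55 replication-dependent histone genes, 10 rose and 4 fell, though these copies are near-identical and lack poly(A) tails. Of 7 mesenchymal genes 1 fell (SNAI2, -0.34 ± 0.09), of 11 Wnt targets 2 fell (CCND1 and MYC), of 15 YAP-TEAD targets 1 rose and 1 fell (NT5E and CYR61), and of 14 fatty acid genes 1 rose (ACSS2, 0.33 ± 0.10). In these bulk libraries fewer cells that express a gene and less RNA per cell cannot be told apart. Average differences without the inhibitor controls were 0.23 for BNIP3, -0.31 for BECN1, 0.19 for DDIT3, -0.12 for SHMT2, 0.33 for RRM2B and -0.034 for GADD45A. Set against the siRNA controls alone, the averages were -0.41 for IER2, -0.33 for MT2A, -0.15 for TJP1, -0.17 for SNAI2 and 0.26 for ACSS2.

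**Figure D4:**
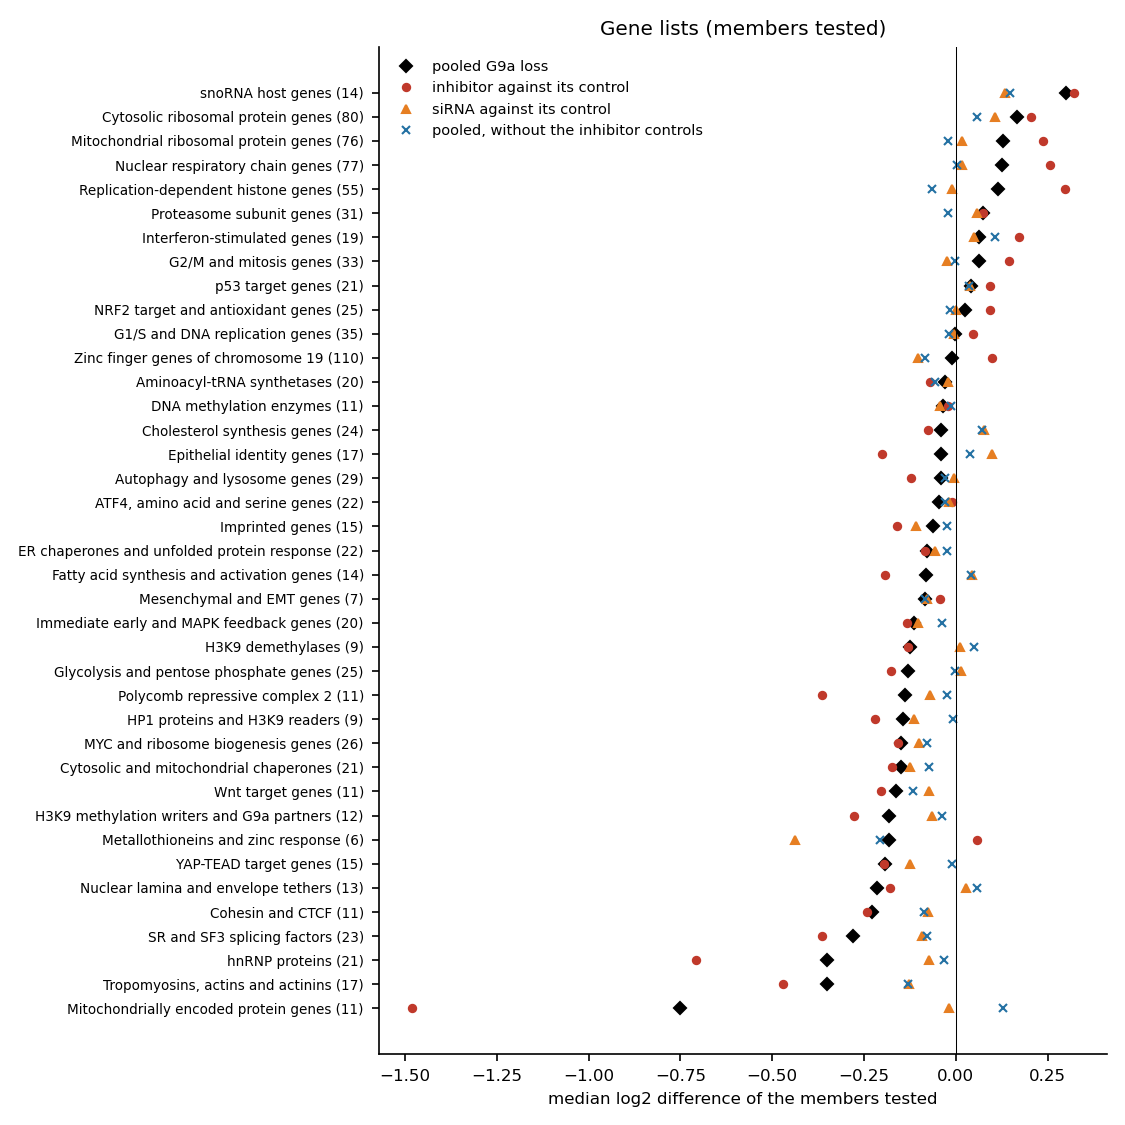
Median log2 difference (horizontal axis) of the members tested in each gene list (vertical axis, number tested in brackets), for the pooled average, for each treatment against its own control, and without the inhibitor controls. The lists at both ends, snoRNA host and ribosomal protein genes at the top and actin, hnRNP and mitochondrially encoded genes at the bottom, move toward 0 when the inhibitor controls are left out.

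Called genes differed from the rest in base composition and level, which the lists do not show. Pooled calls that were higher than their own controls in both experiments had a median transcript GC content of 42.1%, those that were lower in both had 52.2%, and all genes tested had 48.0%. Their median longest transcript was 2622 bases and 6 exons for higher genes and 3510 bases and 9 exons for lower genes, against 3336 bases and 7 exons for all. Their median level was 24.1 FPKM for higher genes and 15.6 FPKM for lower genes, against 8.49 FPKM for all. Calls rose with level, with 6.7% of genes called at 1 to 5 FPKM and 40.6% at 100 FPKM or more, where 160 rose and 76 fell. Of 260 long intergenic noncoding RNAs, 10.4% were called (20 rose and 7 fell), and of 434 antisense RNAs 5.3% (18 rose and 5 fell). Both shares lay below the 17.5% of all genes. Of 10912 protein-coding genes, 19.1% were called (899 rose and 1190 fell). When each library was centred along GC content, a step added after this difference was seen, 1987 genes were called, 1644 of them among the 2242. The part that base composition plays in single genes was not tested beyond this step.

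**Figure D5:**
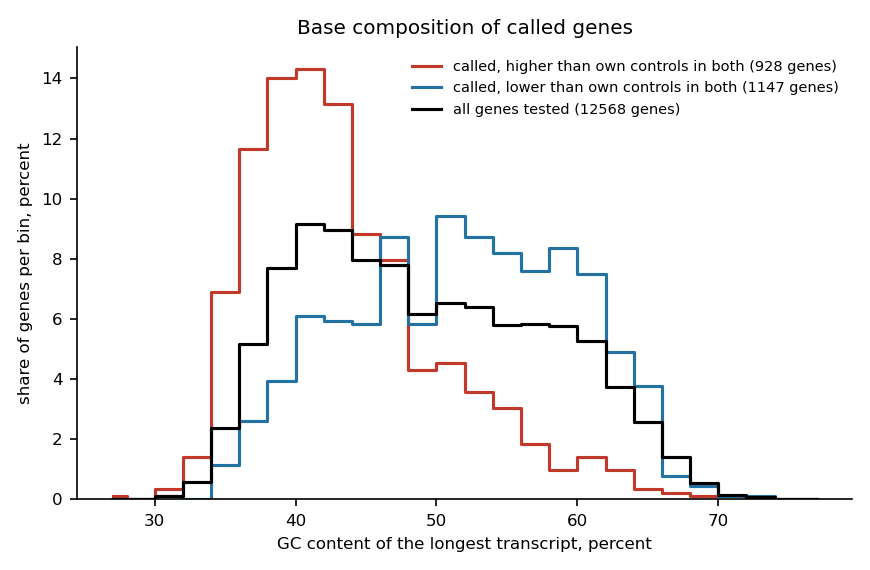
Share of genes (vertical axis, percent per 2% bin) by GC content of the longest annotated transcript (horizontal axis, percent) for pooled calls higher than their own controls in both experiments, pooled calls lower in both, and all genes tested. The higher genes are shifted to the left, with a median of 42.1%, and the lower genes to the right, with a median of 52.2%, of the median of 48.0% for all genes.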

How the data were processed

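Total RNA from 8 libraries of HCT116 cells, each with 2 runs, was compared. The authors deposited gene-level FPKM values from Cufflinks, per the file headers. The submitters' processing notes also name STAR 2.3.0e, SAMtools 0.1.19 and hg19. Cufflinks version, annotation release and use of strand are not stated there. FPKM is relative to each run's total, so abundant RNAs shift other genes.

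Of 63784 entries a run, 131 that repeat an identifier were summed into 63653 genes. Runs of a library (r of 0.975 to 0.987) were averaged. The files hold no counts. Depth was implied from the upper confidence bounds, taken as counting error alone. The 8 genes with a failed or overloaded estimate in any run were dropped. The filter kept genes with a mean of at least 1 FPKM whose locus spans at least 300 bases. Median-of-ratios scaling factors lay between 0.878 and 1.09.

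Log2(FPKM + 1) was fitted with limma 3.58.1 in R 4.3.3 (mean-variance trend, 5 residual and 4.01 prior degrees of freedom), with treatment and experiment as terms. A second fit with 4 group means (4 residual, 5.04 prior) gave each treatment alone and their difference. Called means a two-sided Benjamini-Hochberg adjusted p under 0.05 over all genes tested. The first of these fits was tested on simulated data, and the fit with 4 group means was not. Transcript length and GC came from GENCODE 29, matched by gene identifier for 97.9% of genes.

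EHMT2 and EHMT1 were named first. Then came, at a mean of at least 5 FPKM, the 12 increases and 12 decreases called and on the same side of their controls in both experiments with the largest smaller effect. The 6 largest pooled changes, 6 genes of opposite effect and the 3 list members with the smallest p followed, and other genes were chosen after their values were seen. The members and lists were chosen with earlier results of these data known. Replicate numbers did not pair the libraries (correlations of same-numbered deviations of 0.0973 and 0.0842). Alternatives were other scalings, filters, pseudocounts, blocks, spread estimates, single runs and left-out libraries.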

Additional observations from a re-analysis of the deposited data

Results flagged for a closer look

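Several named genes had an effect of the inhibitor that differed from that of the siRNA by the limma test. The inhibitor minus siRNA difference on the log2 scale was 1.44 for EHMT2, -1.36 for BANF1, -0.93 for MRFAP1, -0.68 for SF3A1, -3.32 for RPS16 and -1.77 for MRPL12. For these 6 genes both effects were negative, and the inhibitor had the larger one except for EHMT2. Genes whose effects had opposite signs gave differences of 4.03 for RP11-603J24.9, -1.91 for RPL41P1, 1.64 for MTRNR2L10, 1.44 for RN7SKP203, 1.70 for RP11-587D21.1 and -1.50 for MT-ND6. They were named by a rule that requires a called difference, so that the difference itself adds nothing to the choice.

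Among the 35 named genes, 1 library was flagged for its gap to the other 3 of its arm for RPS16 and RP11-587D21.1, both in the treated arm. The gap to the nearest library was 0.836 of the range for RPS16, where siRNA replicate 1 was lowest, and 0.853 for RP11-587D21.1, where siRNA replicate 1 was highest. The treated libraries of RP11-587D21.1 lay only between 11.03 and 11.7 FPKM, so that gap was small in size. The 2 flags came from 70 checks, and chance gives such a gap in about 1 of 20 groups.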

How the results depend on the processing

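Counts below follow the order pooled calls, pooled calls on the same side in both experiments, genes whose effect differed, inhibitor alone and siRNA alone (2242, 2107, 1517, 4682 and 273 as reported). With FPKM as deposited they were 1405, 1280, 737, 3111 and 134, and with no filter on low values 234, 234, 245, 2981 and 5. First runs alone gave 1205, 1168, 524, 3108 and 31, and second runs alone 1315, 1277 and 719, with 45 for the siRNA. The siRNA alone gave 587 at a mean of at least 5 FPKM, 22 with short genes kept and 6 with no mean-variance trend, where 878 effects differed. The fit with 4 group means called 4190, which included all 2242. Without the experiment block 1 was called (2741 at unadjusted p under 0.05), and the replicate block, for numbers not shown to pair the libraries, called 298 and 293. Leaving out a control pair also drops the experiment block. Without both inhibitor controls 5 and 5 were called, and without both siRNA controls 5497 and 5472. Leaving out 1 library at a time gave 341 to 2790 pooled calls (341 without inhibitor replicate 1, 361 without replicate 2, 512 and 524 without inhibitor control replicates 1 and 2, 1137 without siRNA replicate 1), 341 to 2761 on the same side, 488 to 1480 differing, 2669 to 4767 for the inhibitor and 9 to 421 for the siRNA.

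EHMT2 kept its direction and lost its call with no filter (-0.95, adjusted p = 0.158), with short genes kept (-0.95, adjusted p = 0.0515), without the experiment block (-0.95, adjusted p = 0.245), under the replicate block (-0.95, adjusted p = 0.0953), without both inhibitor controls (-0.74), without both siRNA controls (-1.16, adjusted p = 0.115) and with GC centring, chosen after seeing the data (-0.86, adjusted p = 0.0532). With 1 library left out EHMT2 lay between -1.14 and -0.77, and it lost its call in 7 of 8 cases (adjusted p of 0.0567 to 0.0848), keeping it without inhibitor control replicate 2 (adjusted p = 0.0443). EHMT1 lost its call with no filter (-0.76, adjusted p = 0.0619), without the experiment block (-0.76, adjusted p = 0.186) and without both inhibitor controls (-0.37, adjusted p = 0.408). Without both inhibitor controls CBX1 (0.072), KRT8 (0.032) and MT-ND3 (0.024) changed sign. Of the 27 genes named by rank, 25 lost their call there, 26 without the experiment block, 18 with no filter and 5 under the replicate block, and none changed sign under any setting. The cause was not tested. Implied depth was 2.02 to 6.94 a run (in units of 1000000 fragments), and its part in the calls was not tested.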
